A study of Mus musculus with 2 samples.

Results

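The colony-stimulating factors and their receptors were followed as 8 genes picked by symbol: the ligand genes Csf1, Csf2 and Csf3 and the receptor genes Csf1r, Csf2ra, Csf2rb, Csf2rb2 and Csf3r. All 8 were found among the 51084 gene identifiers listed in both count tables. The cells were macrophages grown in culture from the bone marrow of C57BL/6J mice. In the CANDI470 group, an agent known here only by that code name was given on day 7 of culture at 1 mg/mL, and RNA was extracted 12 h later. The group it was set against received PBS, in an amount the labels do not give. Cells given empty CANDI, which the study's design names, are not analysed here, so a response to empty CANDI cannot be told apart from the differences given here. Poly(A)-selected RNA was sequenced, and 1 library per group was analysed here, so no difference has a replicate check and no p-value is given. The study's design also names a further control library, which matches no sample described here and was not used. The growth factor used to make macrophages from marrow was not given in the sources used here, so whether CSF1 was present in the medium is not known from them.

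CSF1, also called M-CSF, sustains macrophages through the receptor tyrosine kinase CSF1R, which it shares with interleukin-34. CSF2, also called GM-CSF, binds an alpha subunit encoded by Csf2ra that pairs with the common beta subunit encoded by Csf2rb, and signals through JAK2 and STAT5. Mice carry a further beta gene, Csf2rb2, whose product serves the interleukin-3 receptor, while the Csf2rb product also serves interleukin-3 and interleukin-5. CSF3, also called G-CSF, acts through the receptor encoded by Csf3r, best known for its role in neutrophil production. Activated macrophages can themselves make CSF ligands.

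In all, 41646905 reads were counted in the CANDI470 library and 28442450 in the PBS control library. Counts were scaled with TMM factors and expressed as CPM, the counts per 1000000 scaled counts. A difference is log2(CPM + 1) in CANDI470 minus the same in the PBS control, which understates the folds of genes with low counts, and at least 2-fold means a difference of at least 1 in size. Intervals are at 95%, exact for levels and for folds of a gene between libraries. They, and the floor of 3 counts used where a library had 0, cover counting error only and compare these libraries, not the conditions. All 8 macrophage markers examined, Csf1r among them, had counts in both libraries, with summed levels of 14220 CPM in CANDI470 and 20350 CPM in the PBS control. Of these, 3 were at least 2-fold higher, with Fcgr1 at 2.55 and Mertk at 2.52, and 1 was lower, Csf1r itself. By the same cut, 25.7% of the 12779 genes counted, those with 1 CPM or more on either side, were higher and 23.6% lower. Under library totals and upper-quartile scaling 3 markers were lower. With these scalings 5152 of 12827 and 4063 of 12803 genes were lower, so lower markers were not unusual. With TMM scaling Lyz2 and Adgre1, named after their values were seen, were at -0.93 and -0.70. The tables list different gene models, so the agent cannot be told apart from how each library was counted. In bulk RNA, fewer cells of a type and less RNA per cell cannot be told apart either.

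The order of the receptor genes differed between the libraries. Csf2rb and Csf2rb2, the beta subunit genes, were 9.82-fold and 5.08-fold higher by CPM, Csf3r was 3.41-fold higher, and Csf1r was 4.73-fold lower in CANDI470 than in the PBS control. The ligand genes Csf1 and Csf3 were higher, at 22.0-fold and, against the floor of 3 counts, 150-fold, but from low levels. Of the 8 members, 7 reached 1 CPM in a library, and 6 reached it in both. Of those 6, 4 were at least 2-fold higher, 1 was at least 2-fold lower and 1 was within 2-fold. Among all 12779 genes that reached 1 CPM somewhere, the share at least 2-fold higher was 25.7% and the share at least 2-fold lower 23.6%, so differences of this size were common. These shares cover genes that reached 1 CPM in either library, whereas the 6 members reached it in both. Csf3 reached 1 CPM in the CANDI470 library alone, and so had to differ.

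**Figure D1:**
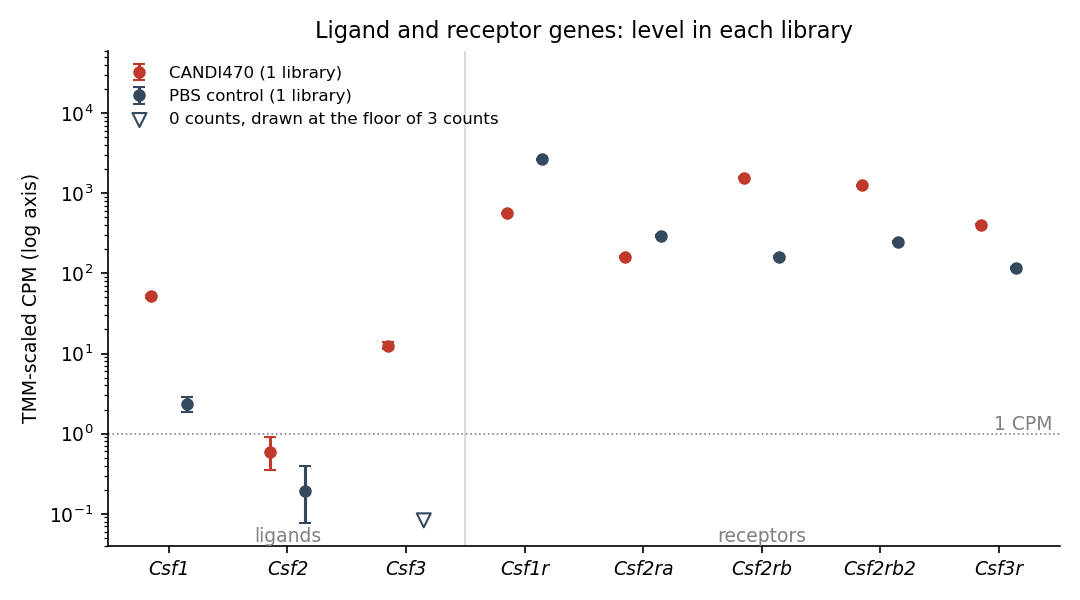
TMM-scaled CPM on a log axis for the 8 genes in the CANDI470 and the PBS control library. Points are single libraries, bars are 95% exact Poisson intervals, and the open triangle marks 0 counts drawn at the floor of 3 counts. Csf1r stands at 560 CPM in CANDI470 and 2653 CPM in the PBS control, while Csf2rb stands at 1571 CPM in CANDI470 and 160.0 CPM in the PBS control.

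Csf1 encodes the macrophage growth factor itself. It had 1673 counts in the CANDI470 library and 85 in the PBS control library, or 51.7 and 2.35 CPM. The difference was 3.98 on the log2 scale, and the CPM ratio of 22.0 had an interval of 17.7 to 27.7. In CANDI470 its level was low beside the receptors, and it ranked 3636th by CPM in that library, against 10353rd in the PBS control. Csf1 lies on the minus strand of chromosome 3 from 107741048 to 107760469 in GRCm38, the build whose coordinates the PBS control table gives.

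Csf3 encodes the granulocyte growth factor. It had 403 counts, or 12.5 CPM, in CANDI470 and 0 in the PBS control, where the floor of 3 counts equals 0.0828 CPM. It was therefore 150-fold higher against that floor, while the lower limit of the ratio interval, which does not use the floor, was 122. The Csf3 difference in log2(CPM + 1) was 3.75. For every 100 counts of Csf1 there were 24.1 of Csf3 in CANDI470. Csf3 lies on the plus strand of chromosome 11 from 98701263 to 98703629.

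Csf2, the granulocyte-macrophage factor, stayed under 1 CPM in both libraries. It had 19 counts in CANDI470 and 7 in the PBS control, or 0.587 CPM with an interval of 0.354 to 0.917 and 0.193 CPM with an interval of 0.0777 to 0.398. The CPM ratio was 3.04, with an interval of 1.22 to 8.55. For every 100 counts of Csf1 there were 1.14 of Csf2 in CANDI470 and 8.24 in the PBS control, a fold of 0.138 with an interval of 0.0538 to 0.400. A gene model on the other strand, Gm12223, overlaps Csf2 on chromosome 11 (54247271 to 54249667, minus strand) and had 0 counts in each table.

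Csf1r, the CSF1 receptor gene, had the lowest difference of the family. It had 18131 counts in CANDI470 and 96075 in the PBS control, or 560 and 2653 CPM. The difference was -2.24, and CPM was 4.73-fold lower in CANDI470 with an interval of 4.66 to 4.81. In the PBS control Csf1r ranked 23rd of all genes by CPM, and in CANDI470 it ranked 393rd. Of all genes counted, 5.49% had a lower difference. Its gene model held 5774 bases for CANDI470 and 4885 for the PBS control, and per length the difference was -2.47. Csf1r lies on the plus strand of chromosome 18 from 61105572 to 61132149, where the gene Hmgxb3 overlaps it on the other strand with 956 counts in CANDI470 and 496 in the PBS control.

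The ligand was higher and its receptor lower, and their ratio within each library differed widely. Per length, there were 10.1 Csf1 transcripts for every 100 of Csf1r in CANDI470 and 0.0818 in the PBS control. The ratio of raw counts was 104-fold higher in CANDI470, with an interval of 83.8 to 131. Such a ratio within a library needs no scaling between libraries.

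Csf2rb encodes the beta subunit common to the receptors for CSF2, interleukin-3 and interleukin-5. It had 50820 counts in CANDI470 and 5793 in the PBS control, or 1571 and 160.0 CPM. The difference was 3.29, and the ratio of 9.82 had an interval of 9.56 to 10.09. It ranked 100th by CPM in CANDI470 and 826th in the PBS control. For every 100 Csf1r transcripts there were, per length, 222 of Csf2rb in CANDI470 and 4.05 in the PBS control, a ratio chosen after the values were seen. Its model, on the plus strand of chromosome 15 from 78325752 to 78353847, had the same length of 7277 bases in both tables.

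Csf2rb2, the further beta gene that serves the interleukin-3 receptor, had 40755 counts in CANDI470 and 8973 in the PBS control, or 1260.0 and 248 CPM. The difference was 2.34 and the ratio was 5.08, with an interval of 4.969 to 5.202. It lies beside Csf2rb, on the minus strand of chromosome 15 from 78282507 to 78305721. The longest open reading frames of these genes in GENCODE M21 were 95.2% identical over 2631 aligned bases. Of the distinct 150-base windows in their transcripts, 3.34% of those of Csf2rb2 and 2.30% of those of Csf2rb were found in the other gene. With windows of 50 bases, the shares were 18.4% and 12.3%, so how reads were split between these genes is uncertain. Per length, there were 123 Csf2rb2 transcripts for every 100 of Csf2rb in CANDI470 and 238 in the PBS control, a fold of 0.518 between libraries with an interval of 0.50 to 0.54. These levels use the deposited model lengths. With GENCODE M21 transcript lengths there were 82.9 in CANDI470 and 160.1 in the PBS control, so which gene had the higher level in CANDI470 depends on the length used.

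RefSeq's promoter table for GRCm38.p6 held a window for 5 of the 8 genes: Csf1, Csf2, Csf2ra, Csf2rb2 and Csf3r. The following 4 windows are shown because they belong to the genes that reached 1 CPM, with differences in both directions. Each runs 5′ to 3′ on the gene's strand, up to 250 bases before the RefSeq start, and stops where an exon of GENCODE M21 begins. Capitals mark matches, on either strand, to the STAT palindrome TTCNNNGAA, the AP-1 motif TGANTCA, the PU.1 core GAGGAA or GAAANNGAA, a stretch found in interferon response elements.
Csf2rb2, chr15:78305722-78305971, minus strand: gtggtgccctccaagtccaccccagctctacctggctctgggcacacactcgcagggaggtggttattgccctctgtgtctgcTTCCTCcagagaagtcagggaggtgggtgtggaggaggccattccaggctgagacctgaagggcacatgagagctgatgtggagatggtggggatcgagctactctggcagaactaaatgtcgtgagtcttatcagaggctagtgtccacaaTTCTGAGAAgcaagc
Csf1, chr3:107760470-107760719, minus strand: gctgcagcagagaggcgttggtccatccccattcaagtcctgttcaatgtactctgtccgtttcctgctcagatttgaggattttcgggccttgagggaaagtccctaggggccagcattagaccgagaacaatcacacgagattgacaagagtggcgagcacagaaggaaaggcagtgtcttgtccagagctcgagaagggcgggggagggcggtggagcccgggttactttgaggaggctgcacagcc
Csf3r, chr4:126024409-126024549, plus strand: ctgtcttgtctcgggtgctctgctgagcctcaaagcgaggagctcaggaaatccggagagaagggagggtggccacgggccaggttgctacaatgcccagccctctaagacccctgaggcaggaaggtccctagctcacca
Csf2ra, chr19:61228430-61228668, minus strand: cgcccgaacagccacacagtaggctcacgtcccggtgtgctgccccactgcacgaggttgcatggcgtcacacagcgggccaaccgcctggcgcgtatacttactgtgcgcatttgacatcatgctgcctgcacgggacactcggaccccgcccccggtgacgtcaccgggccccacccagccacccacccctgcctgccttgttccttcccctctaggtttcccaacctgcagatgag
The Csf2rb2 window held 1 STAT palindrome, which began 15 bases before the start, and 1 PU.1 core on the opposite strand, which began 167 bases before it. No match lay in the windows of Csf1, Csf3r or Csf2ra, while that of Csf2, not shown, held 1 match to GAAANNGAA. In windows of 250 bases, 7.02% of 32851 promoters held the STAT palindrome, 23.3% the PU.1 core, 6.75% the AP-1 motif and 7.13% the interferon stretch. A match is only a run of letters, and the lack of one says nothing about a factor. The windows of Csf3r and Csf2ra were 141 and 239 bases long, and the 4 motifs were found in 3.70% to 14.0% and 6.57% to 22.1% of promoters at these lengths.

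Csf2ra, the ligand-binding alpha subunit gene of the CSF2 receptor, differed in the direction opposite to the beta genes. It had 5129 counts in CANDI470 and 10625 in the PBS control, or 158.5 and 293 CPM. The difference was -0.88, within 2-fold, and CPM was 1.85-fold lower in CANDI470 with an interval of 1.79 to 1.91. Its model held 2871 bases for CANDI470 and 1849 for the PBS control, and per length the difference was -1.51, past 2-fold. Scaling by library totals and by the upper quartile also put it past 2-fold, at -1.59 and -1.25, whereas correcting for GC content and gene length gave 0.00. Its direction was therefore not settled by these libraries. Csf2ra lies on the minus strand of chromosome 19 from 61224402 to 61228418.

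The balance of the CSF2 receptor subunits was reversed between the libraries. Per length, there were 25.6 Csf2ra transcripts for every 100 of Csf2rb in CANDI470 and 722 in the PBS control. The size of this ratio depended on the length used. With GENCODE M21 transcript lengths it was 21.7 in CANDI470 and 395 in the PBS control, and by counts 10.1 and 183. From raw counts the fold between libraries was 0.0550, with an interval of 0.0527 to 0.0574, and per length it was 0.0354. The alpha subunit gene was the more abundant in the PBS control and the less abundant in CANDI470.

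Csf3r, the CSF3 receptor gene, had 13044 counts in CANDI470 and 4278 in the PBS control, or 403 and 118 CPM. The difference was 1.76, and the ratio of 3.41 had an interval of 3.30 to 3.53. Its difference was the smallest of the higher members, and scaling by library totals left it at 1.06. For every 100 Csf1r transcripts there were, per length, 115 of Csf3r in CANDI470 and 6.03 in the PBS control, or 97.2 and 6.01 with transcript lengths. Csf3r lies on the plus strand of chromosome 4 from 126024550 to 126044440, and its model had 3609 bases in both tables.

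Because Csf3r and Csf2rb are also active in neutrophils and other granulocytes, markers of those cells are given beside them. Of 13 neutrophil markers, 9 reached 1 CPM and all 9 were at least 2-fold higher in CANDI470, as were 25.7% of all genes counted. Of those 9, 4 reached 1 CPM in CANDI470 alone and so could only be higher. Summed levels over the 13 were 752 CPM in CANDI470 and 10.7 CPM in the PBS control, of which Lcn2 made 388 and 1.57 CPM. The largest differences were those of Lcn2 (7.24), Ngp (5.46) and S100a9 (5.18), which encode granule or alarmin proteins. The progenitor granule genes Elane and Mpo, singled out after their values were seen, were near 0, with 2 and 9 counts in CANDI470 and 10 and 12 in the PBS control. Of 9 mast cell and basophil markers, 8 were at least 2-fold higher, or 4 with a pseudocount of 5 CPM, and 1 was lower. Among all genes counted, 23.6% were at least 2-fold lower. Of the 9 markers, 7 reached 1 CPM in CANDI470 alone and so could only be higher. Summed levels were 294 CPM in CANDI470, where Hdc made 199 CPM, and 164 CPM in the PBS control, where Il3ra made 160 CPM. Hdc, the histamine-making enzyme, was at 7.42, Prss34 at 3.96, Cpa3 at 3.02 and Il3ra at -1.79. The part of such cells in the differences of Csf3r, Csf2rb and Csf2rb2 was not tested.

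Markers of other cell types differed in several lists, some at levels in CANDI470 within the range of the receptor genes. Over all genes counted, 25.7% were at least 2-fold higher and 23.6% lower. For dendritic cells, 5 of the 6 markers at 1 CPM were higher, with Ccr7 at 8.69, Btla at 4.43 and Itgax at 4.02, and summed levels of 594 CPM in CANDI470 and 7.95 CPM in the PBS control. For T and NK cells, 4 of 5 were higher and 1 lower, with Gzmb at 4.76, Il7r at 2.74, Cd8a at 1.42 and Cd4 at -1.29, and summed levels of 949.9 CPM in CANDI470 and 149.9 CPM in the PBS control, of which Il7r made 915 and 136 CPM. Gzmb had 843 counts in CANDI470 and 0 in the PBS control, Cd8a 54 and 0, and Ncr1 0 in both. For B and plasma cells, 1 of 3 was higher and 1 lower, with Ighm at -3.96, Igkc at 1.60 and Cd79b at -0.57, and summed levels of 11.96 CPM in CANDI470 and 150.2 CPM in the PBS control. Fibroblast markers summed to 10.4 CPM in CANDI470 and 0.884 CPM in the PBS control, and 4 of 5 were higher, with Thy1 at 2.15, Col1a1 at 1.47 and Dcn at 1.41, but 0 of 5 with a pseudocount of 5 CPM. For endothelium, 3 of 4 were higher, with Pecam1 at 3.80, Kdr at 3.42 and Cdh5 at 1.75, and summed levels of 195 CPM in CANDI470 and 43.7 CPM in the PBS control. Of the erythroid and megakaryocyte list, 3 of 3 were higher, with Pf4 at 3.49, Ppbp at 3.17 and Itga2b at 1.40, while the globin genes Hba-a1 and Hbb-bs had 0 counts in both libraries. Its summed levels were 493 CPM in CANDI470 and 42.7 CPM in the PBS control, of which Pf4 made 478.5 and 41.6 CPM. A marker near 0 in the PBS control reached 1 CPM only where it was high in CANDI470, and the part of these cells in the members' differences was not tested.

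Taken per length, the receptor genes as a group had a summed level of 746 CPM per 1000 bases in CANDI470 and 809 in the PBS control. That comparison depended on the scaling and the length: library totals gave 583 in CANDI470 and 1035 in the PBS control, transcript lengths from GENCODE M21 gave 891 and 812, and CPM without length gave 3952 and 3472. The make-up of the sum within a library does not depend on the scaling. Csf1r made up 13.0% of that level in CANDI470 and 67.2% in the PBS control. Csf2rb and Csf2rb2 together made up 64.6% in CANDI470 and 9.18% in the PBS control. With transcript lengths, Csf1r made up 13.4% in CANDI470 and 69.5% in the PBS control, and both beta genes 65.8% in CANDI470 and 10.5% in the PBS control. Csf3r made up 15.0% in CANDI470 and 4.05% in the PBS control, and Csf2ra 7.41% in CANDI470 and 19.6% in the PBS control. By the lengths of the deposited gene models, the order of levels in CANDI470 was Csf2rb2, Csf2rb, Csf3r, Csf1r, Csf2ra, Csf1, Csf3 and Csf2. In the PBS control it was Csf1r, Csf2ra, Csf2rb2, Csf3r, Csf2rb, Csf1, Csf2 and Csf3. With transcript lengths Csf2rb stood above Csf2rb2 and Csf1r above Csf3r in CANDI470, so the order within these pairs is not settled, while the order in the PBS control was the same. With 1 library per group analysed, no spread over samples was at hand against which neighbours in these orders could be judged.

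**Figure D2:**
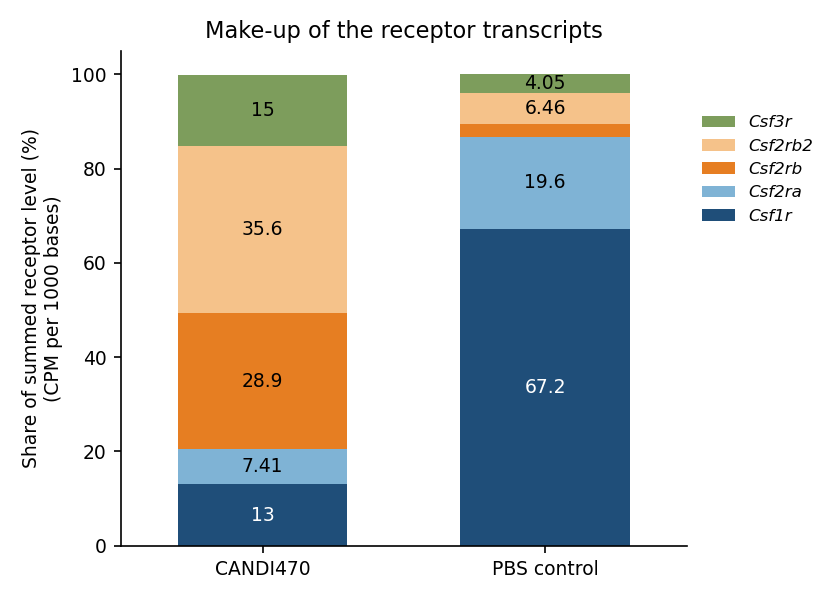
Share of each receptor gene in the summed receptor level, in percent of CPM per 1000 bases of gene model, for the CANDI470 library and the PBS control library. Csf1r takes 13.0% of the CANDI470 bar and 67.2% of the PBS control bar, and both beta subunit genes together take 64.6% and 9.18% of the same bars.

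Among all genes counted, the family's differences lay on both sides. A larger difference was found for 3.07% of genes than for Csf1, 3.56% than for Csf3, 4.67% than for Csf2rb, 8.83% than for Csf2rb2 and 13.5% than for Csf3r. Of all genes, 26.5% had a lower difference than Csf2ra. The median of all genes was -0.01.

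**Figure D3:**
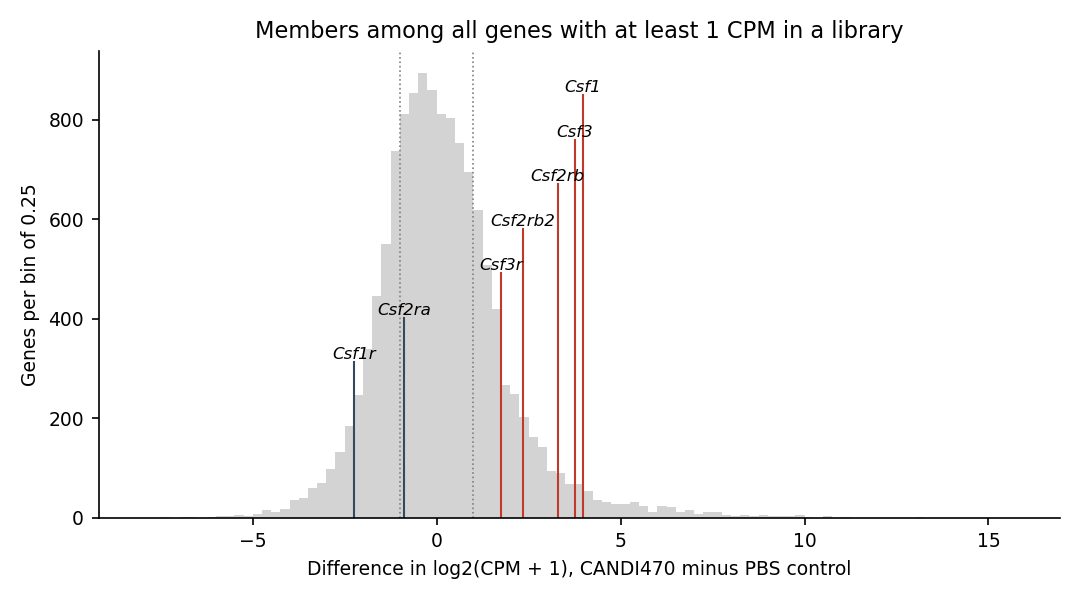
Number of genes by difference in log2(CPM + 1), CANDI470 minus PBS control, for the 12779 genes counted, with vertical lines at the 7 members counted and dotted lines at 2-fold. Csf1r at -2.24 lies in the lower tail, and Csf1, Csf3 and Csf2rb lie between 3.29 and 3.98 in the upper tail.

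Ligands and receptors related to the family had mixed differences, where 25.7% of all genes counted were at least 2-fold higher and 23.6% lower. Il34, the other ligand of CSF1R, had 11 counts in CANDI470 and 3 in the PBS control, under 1 CPM in both. Il3 had 0 counts in both, where the floor of 3 counts equals 0.0927 CPM in CANDI470 and 0.0828 CPM in the PBS control. Il5, whose receptor uses the Csf2rb product, had 101 counts in CANDI470 and 0 in the PBS control, 37.7-fold higher against that floor. Il3ra, the interleukin-3 receptor alpha gene, had 45.6 CPM in CANDI470 and 160 CPM in the PBS control. Il3ra was thus lower while the beta genes were higher, and its difference was -1.79, or -0.615 when corrected for GC content and gene length. Kitl, the stem cell factor gene, was at 2.04 with 119 CPM in CANDI470 and 28.1 CPM in the PBS control, and Flt3l, the FLT3 ligand gene, at -2.09 with 0.680 and 6.13 CPM. Of the 9 genes listed, 5 reached 1 CPM, with 3 higher, 2 lower and a median of 1.13. That median was -0.285 with the deposited values and -0.328 at a minimum of 5 CPM. Il5 reached 1 CPM in CANDI470 alone and Flt3l in the PBS control alone, so the filter fixed their directions.

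Of 22 signal carriers downstream of CSF1R, 5 were at least 2-fold higher, 6 at least 2-fold lower and 11 within 2-fold, with a median of -0.03. These shares are near those of all genes, 25.7% higher and 23.6% lower. Under library totals 3 were higher and 8 lower, with a median of -0.73. With that scaling 2080 of all 12827 genes counted were higher and 5152 lower, with a median of -0.69. Src, the tyrosine kinase, was at 6.70 with 304 CPM in CANDI470 and 1.93 CPM in the PBS control. Sos1, an activator of Ras, was at 2.67 and Dok2, an adaptor that restrains tyrosine kinase signals, at -2.74. Of 5 genes counted for shedding and surface turnover, 2 were higher and 0 lower, with a median of -0.03. Library totals gave 2 higher, 2 lower and a median of -0.74, beside the -0.69 of all genes. Rhbdf2, which guides the sheddase ADAM17 to the cell surface, was at 2.84, the protease gene Furin at 2.45 and Rhbdf1 at -0.92.

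Of 19 signalling genes of the beta common and CSF3 receptors, 13 were at least 2-fold higher and 1 at least 2-fold lower, where 25.7% and 23.6% of all genes were. The median was 1.64, against -0.01 for all genes. Library totals left 9 higher with a median of 0.93, against -0.69 for all genes. Upper-quartile scaling left 10 higher with a median of 1.27, against -0.38 for all genes. Of the 19, 2 reached 1 CPM in CANDI470 alone. The feedback inhibitor genes Socs3 and Socs1 were at 6.84 and 5.47, and Jak2, the kinase bound to the beta subunit, at 5.41. Sh2b3, an adaptor that restrains JAK2, was at -2.53 with 21.02 CPM in CANDI470 and 126 CPM in the PBS control. Several of these genes also answer to other cytokines, so the list is not specific to CSF receptors.

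Genes linked to CSF2 and to CSF1 in myeloid cells had medians of opposite sign. Over all genes counted, 25.7% were at least 2-fold higher and 23.6% lower. Of 10 CSF2-linked genes counted, 8 were higher and 1 lower, with a median of 3.82. Of those 10, 5 reached 1 CPM in CANDI470 alone, Inhba and Ccr7 among them, and so could only be higher, which limits what the count and the median say. The number lower was 2 under library totals and upper-quartile scaling, where 5152 of 12827 and 4063 of 12803 genes were lower. The activin subunit gene Inhba was at 10.62, the interleukin-1 receptor antagonist gene Il1rn at 10.10 and the migration receptor gene Ccr7 at 8.69. Pparg, a nuclear receptor that CSF2 maintains in lung macrophages, was at -4.68 with 1.24 CPM in CANDI470 and 56.3 CPM in the PBS control, and Batf3, named after its values were seen, was at -0.81 with 2.41 and 4.97 CPM. Of 12 genes linked to macrophages grown in CSF1, 10 were lower and 1 higher, with a median of -2.29, and 2 of them, Cd163 and Cx3cr1, reached 1 CPM in the PBS control alone. Gas6, a bridging ligand for dying cells, was at -5.36, the haemoglobin scavenger receptor gene Cd163 at -3.82, the fractalkine receptor gene Cx3cr1 at -3.76 and Mertk at 2.52. These lists were drawn up with earlier results of these libraries known, so their directions are not independent evidence.

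Transcription factors known to bind the Csf1r locus were mixed, with 4 of 15 at least 2-fold higher and 6 lower. Over all genes counted, 25.7% were at least 2-fold higher and 23.6% lower, the shares to set beside each list here. The median of these factors was -0.27, or 0.17 when corrected for GC content and gene length and -0.98 under library totals. All genes counted had a median of -0.69 under library totals and -0.38 under upper-quartile scaling. Of the 15 factors, 1 reached 1 CPM in CANDI470 alone and so could only be higher. Egr1, an immediate early factor, was at -5.29 and the ETS factor gene Fli1 at -3.46. Ets2, which acts downstream of CSF1R signalling, was at 2.78. Of 15 NF-kB, AP-1 and NFAT genes, whose products bind the promoters of CSF ligand genes, 6 were higher and 5 lower, with a median of 0.36 that was -0.35 under library totals and -0.01 under upper-quartile scaling. Fosb was at -5.70, Batf at 4.72 and Nfatc2 at -4.37. Of these 15 genes, 1 reached 1 CPM in CANDI470 alone and 1, Fosb, in the PBS control alone, which fixed their directions. Of 12 genes for the decay and stability of cytokine mRNA, 4 were higher and 1 lower, with a median of 0.34 that was -0.36 under library totals and -0.02 under upper-quartile scaling. Arid5a, which stabilises cytokine transcripts, was at 4.17. Zc3h12a, whose product cleaves them, was at 3.19, its relative Zc3h12c at 2.99, and Zfp36l2, which binds AU-rich elements, at -1.60.

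**Figure D4:**
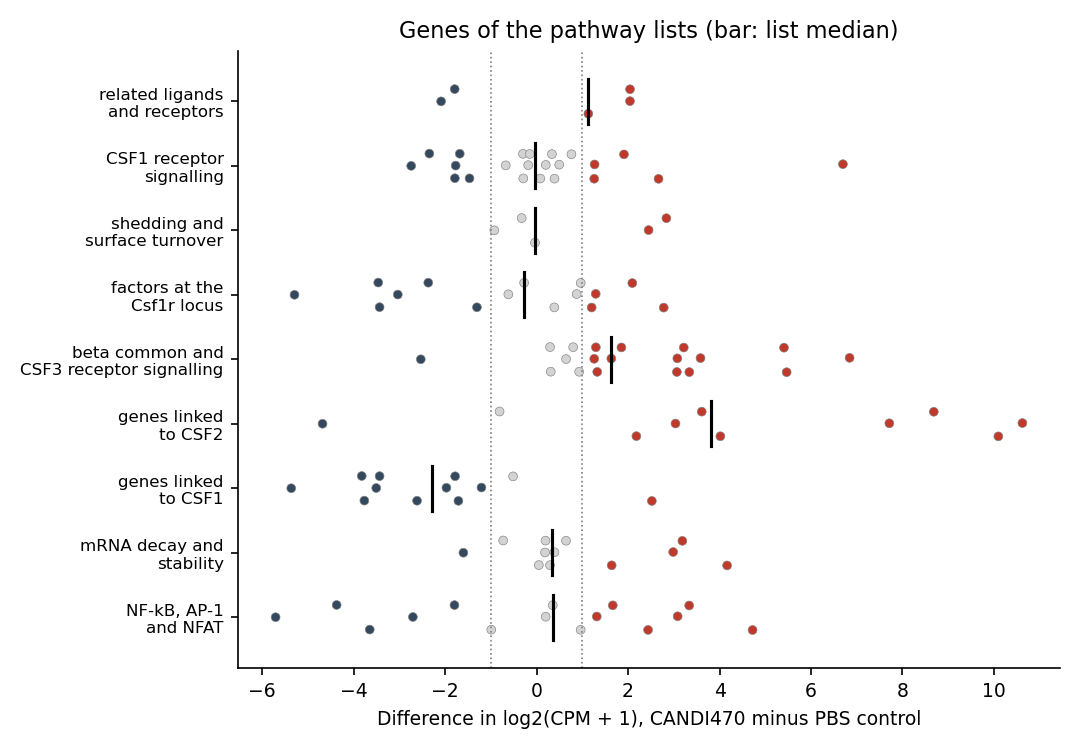
Difference in log2(CPM + 1), CANDI470 minus PBS control, for each gene with at least 1 CPM in the 9 pathway lists, with black bars at list medians and dotted lines at 2-fold. The CSF2-linked list has a median of 3.82 and the CSF1-linked list a median of -2.29, while CSF1 receptor signalling has a median of -0.03.

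The directions of all members counted except Csf2ra were the same under every alternative that gave them a value. Alternatives that change only which genes are counted could not move a member's value. Csf3, with 0 counts in the PBS control, could only be higher. Csf1 ranged from 2.90 to 4.40, Csf3 from 1.80 to 6.97 with the pseudocount, Csf1r from -2.95 to -1.80, Csf2rb from 2.58 to 3.55, Csf2rb2 from 1.63 to 2.60 and Csf3r from 1.06 to 2.27. Library totals lowered the median of all genes to -0.69 and upper-quartile scaling lowered it to -0.38. Every member with a value under them was lower than with TMM scaling. Differences also varied with GC content. Their median was 0.527 in the tenth of genes with the lowest GC content and -0.816 in the tenth with the highest. Transcripts of the 7 members counted held 53.3% to 57.8% GC.

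**Figure D5:**
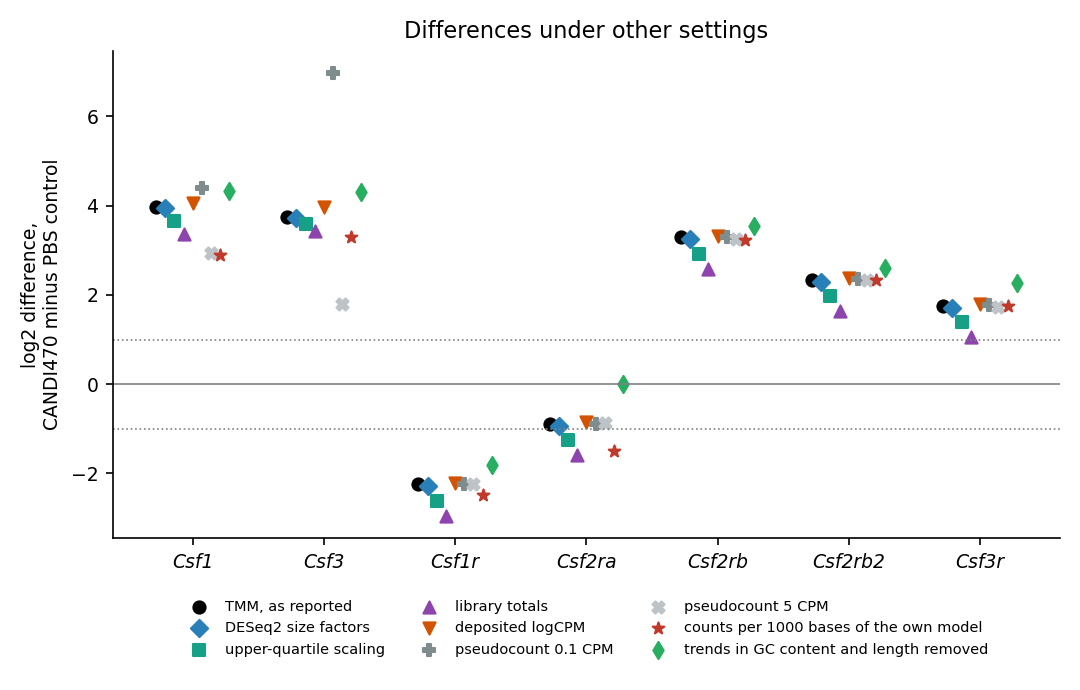
Difference of the 7 members counted under TMM scaling and 8 alternatives, with dotted lines at 2-fold. Csf1r stays at or under -1.80 and Csf3r at or over 1.06, while Csf2ra runs from -1.59 under library totals to 0.00 after correction for GC content and gene length.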

How the data were processed

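The authors deposited whole-number read counts per gene, with no normalization per the file headers, and log2 values headed logCPM. The submitters' processing notes name mm10. Which aligner, counter, strand setting and annotation were used is not given in the sources used here. A title line of the CANDI470 table also names BTZ, which the labels do not explain. For 12726 genes the authors' deposited log2 values could be rebuilt from the counts with a single factor for each library and 1 added. The PBS control table has 3 further library columns, which match no sample described here and were not used. The study's design names a further control library and libraries of empty CANDI. Tables were joined by identifier, of which 56748 were listed for CANDI470 and 54532 for the PBS control, and 94.2% of those shared had equal model lengths.

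TMM factors (edgeR 4.0.16, R 4.3.3) were set on genes that reached 1 CPM before scaling and were 0.782 for CANDI470 and 1.28 for the PBS control. Only genes reaching 1 CPM were counted past 2-fold, with a pseudocount of 1 CPM. With 1 sample per group no test was run. Intervals were exact (scipy 1.17.1), except log-normal ones for ratios of gene pairs with at least 100 counts of each. Other scalings tried were library totals, the upper quartile, size factors from DESeq2 1.42.0 and the deposited log2 values. Further alternatives were a pseudocount of 0.1 or 5 CPM, a filter at 5 CPM or none, only protein-coding genes, only equal gene models, counts per 1000 bases, and a correction for GC content and gene length (20 bins each). The scaling step was run on simulated counts in which a small set of genes had known folds, as many higher as lower. In these libraries 25.7% of genes counted were at least 2-fold higher and 23.6% lower. The simulated run therefore does not check the scaling where so many genes differ. The members and gene lists were chosen with earlier results of these data known. Genes named were all members and, from each list, the 3 with the largest difference in size plus the farthest the other way if past 2-fold. A gene that this rule names is not reported here. Il34 and Il3 were named as ligands, and Elane, Mpo, Ncr1, Hba-a1, Hbb-bs, Batf3, Lyz2 and Adgre1 were named outside the rule, after their values were seen. With 2 libraries no gene was named as most like a member.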

Additional observations from a re-analysis of the deposited data

How the results depend on the processing

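Of the members, 5 were at least 2-fold higher under each of the 12 alternatives. The filters and the limits to some genes leave a member's value as it was or drop it, so agreement there was fixed in advance. Csf3, among the 5, had 0 counts in the PBS control and could only be higher. The number of members at least 2-fold lower was 1. It was 2 under library totals, upper-quartile scaling and counts per 1000 bases, where Csf2ra joined Csf1r. It was 0 with equal gene models only, where neither gene is counted. Over all genes, 3282 were higher and 3013 lower. Library totals gave 2080 higher and 5152 lower, so that 28.8% of these were higher against 52.1% in the values reported and 38.8% under upper-quartile scaling. A pseudocount of 5 CPM gave 1774 lower. Per length, the fold of Csf2ra per Csf2rb between libraries was 0.0354, that of Csf3r per Csf1r was 19.1 against 16.2, and that of Csf2rb per Csf1r, a pair added after seeing the data, was 54.9 against 46.5. Of the members, only Csf1r and Csf2ra have models of unequal length.

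List medians near 0 depended on the scaling, and so did the median of all genes. The latter was -0.69 under library totals and -0.38 under upper-quartile scaling, against -0.01 in the values reported. Under library totals the median of the NF-kB, AP-1 and NFAT list was -0.35 and that of the mRNA decay list -0.36, and under upper-quartile scaling they were -0.01 and -0.02. Correction for GC content and gene length gave 0.175 for CSF1 receptor signalling and 0.17 for factors at the Csf1r locus, and library totals gave -0.73 and -0.98. The median of related ligands and receptors was -0.285 with the deposited values and -0.328 at a minimum of 5 CPM, and that of the shedding list was 1.21 at that minimum and 0.302 with no filter. The medians of the CSF2-linked and CSF1-linked lists kept their signs under all alternatives, from 2.63 to 5.55 and from -3.00 to -2.07. Of the genes named by the rule, 11 came within 2-fold under at least 1 alternative: Thy1, Col1a1, Dcn, Cd8a, Cd4, Cdh5, Igkc, Itga2b, Il5 and Flt3l, all 10 with a pseudocount of 5 CPM, and Il3ra. Transcript lengths, and levels with no length, were added after seeing the data. Depth limits Csf2, Il34 and Il3, which had under 20 counts in each library. No paired analysis was possible because 1 sample per group was analysed. No alternative that leaves out a sample could be run for the same reason.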
